A study of Mus musculus with 4 samples.

Results

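The transcription and splicing factors Grhl1, Grhl2, Ovol1, Ovol2, Esrp1, Esrp2, Elf3, Ehf, Klf4 and Klf5 were described as a set of epithelial identity regulators, 10 genes of the 19938 measured. They were taken by symbol from the array's gene table, and each had 1 probe set that carried no other symbol. RNA came from Py2T cells, a mouse breast cancer line derived from a mammary tumour of an MMTV-PyMT transgenic mouse, which undergoes an epithelial-mesenchymal transition (EMT) when exposed to TGFβ. The 2 untreated arrays were compared with 2 arrays from cells that had received 2 ng/ml TGFβ for 5 days, and both groups grew in DMEM with 10% FCS. The labels name the samples biological replicates of 1 cell line and say no more of the cultures, and p-values therefore reflect only how far these samples differ from each other. Values are log2 expression after RMA, with which the authors corrected background, normalized the arrays by quantiles and summarised each probe set.

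Epithelial identity is held by a small network of regulators. Grainyhead-like factors bind and open the enhancers of junction genes, Ovol factors are zinc finger repressors that keep mesenchymal genes such as Zeb1 off, and Esrp proteins bind RNA and direct the epithelial choice of exons in transcripts such as Fgfr2, Cd44 and Ctnnd1. Elf3 and Ehf are ETS factors restricted to epithelia, and Klf4 and Klf5 are zinc finger factors of epithelial differentiation and growth. In EMT the repressors Zeb1, Zeb2, Snai1 and Snai2 bind E-boxes in epithelial genes, and Zeb and Grhl2 or Ovol factors repress each other.

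After TGFβ, 7 of the 10 regulators fell, 0 rose and 3 did not pass. The 7 were Elf3, Grhl2, Esrp1, Ovol1, Esrp2, Klf4 and Klf5, and the falls ran from 3.89-fold for Elf3 to 1.68-fold for Klf5. Grhl1, Ovol2 and Ehf did not pass. Genes were tested with limma, a linear model per gene with moderated variances, and called at a Benjamini-Hochberg adjusted p under 0.05 over all 19938 genes. By that rule 7.15% of all genes were lower and 6.49% higher, or 13.6% in either direction. At least a 2-fold fall was called for 6 of the 10 regulators, against 1.78% of all genes. The median difference of the 10 was -1.07 on the log2 scale, beside 0.01 over all genes. The 2 groups did not overlap for 9 of the 10, against 52.6% of all genes, and both TGFβ arrays were the lower for these 9 and for 4994 of the 19938 genes. All 10 had a difference below 0, as had 9403 of the 19938 genes. At an unadjusted p under 0.05 limma gave 8 of the 10 lower and 0 higher, beside 13.4% and 12.7% of all genes. In RNA from whole cultures, fewer cells that express a gene and less RNA per cell cannot be told apart.

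**Figure D1:**
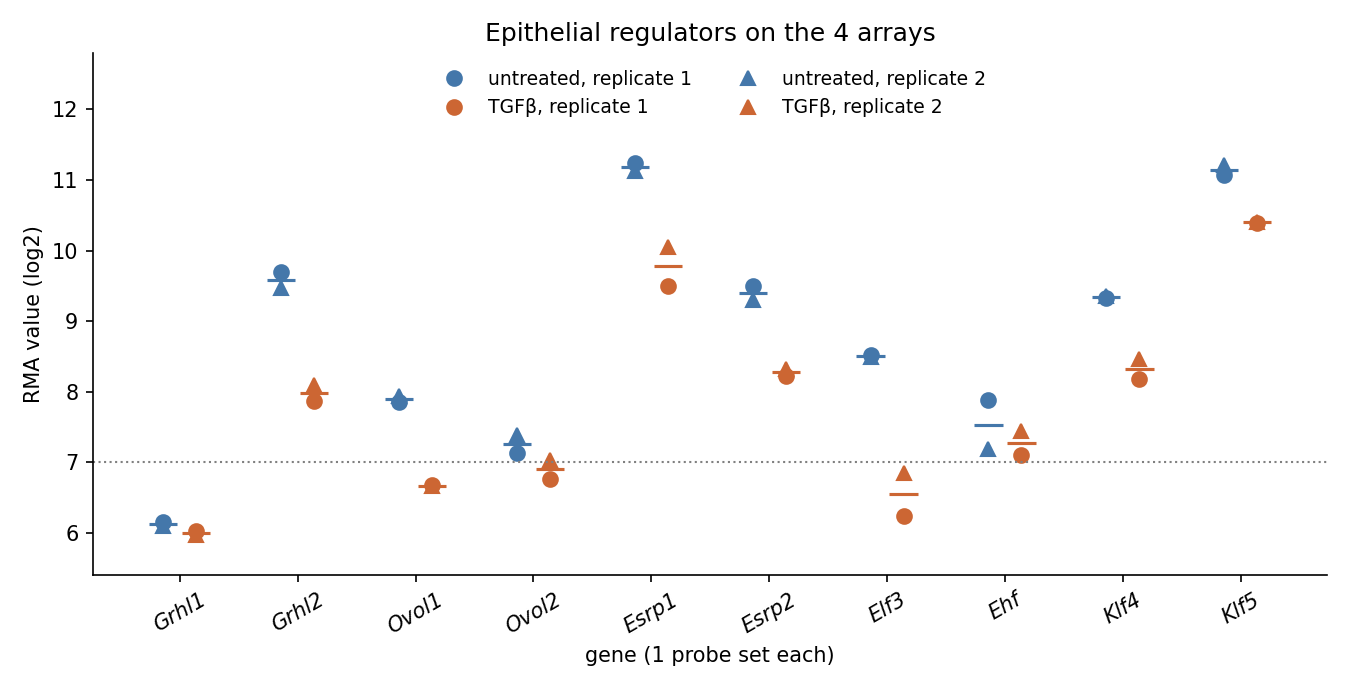
Log2 RMA values of the 10 regulators on each of the 4 arrays, with untreated arrays in blue, TGFβ arrays in orange and a short line at each group's mean. The dotted line at 7 marks the level under which values are read here as near background. For 9 of the 10 genes both TGFβ arrays lie below both untreated arrays, and Ehf is the exception.

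The promoters of Elf3, Klf4 and Ovol2 are shown because they are regulators with a RefSeq promoter here whose changes differ, Elf3 and Klf4 having fallen and Ovol2 not having passed. Each stretch is the 250 bases before the start site on the gene's own strand, 5′ to 3′, from RefSeq on GRCm38.p6. Capitals mark matches on either strand to the E-box CACCTG or CAGGTG, the KLF CACCC box CCACCC or GGGTGG, and the GC box GGGCGG or CCGCCC.
Elf3, chr1:135258473-135258722, minus strand: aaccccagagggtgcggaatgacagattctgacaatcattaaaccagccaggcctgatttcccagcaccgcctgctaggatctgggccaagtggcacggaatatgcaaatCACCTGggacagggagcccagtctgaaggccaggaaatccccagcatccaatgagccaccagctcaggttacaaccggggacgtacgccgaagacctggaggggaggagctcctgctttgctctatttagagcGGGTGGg
Klf4, chr4:55532476-55532725, minus strand: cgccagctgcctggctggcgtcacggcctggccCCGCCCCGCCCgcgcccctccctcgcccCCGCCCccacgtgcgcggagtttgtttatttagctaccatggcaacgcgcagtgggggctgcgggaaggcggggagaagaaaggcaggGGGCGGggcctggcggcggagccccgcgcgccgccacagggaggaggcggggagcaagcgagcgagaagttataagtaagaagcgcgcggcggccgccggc
Ovol2, chr2:144331363-144331612, minus strand: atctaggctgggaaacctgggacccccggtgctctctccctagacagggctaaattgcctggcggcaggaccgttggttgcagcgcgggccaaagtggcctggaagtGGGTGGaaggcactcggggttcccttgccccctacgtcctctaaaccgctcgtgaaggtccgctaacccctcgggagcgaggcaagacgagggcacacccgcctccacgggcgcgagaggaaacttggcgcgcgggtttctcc
The Elf3 window held an E-box CACCTG from base -140 to -135 and a GGGTGG that ended at base -2. The Ovol2 window held 1 GGGTGG, from base -143 to -138, and no E-box. The Klf4 window held 4 GC boxes, the first 2 of which shared a base, and no E-box. Its GC content was 74.0%, against 57.2% for Elf3 and 65.2% for Ovol2. A window was found for 4 of the 10 regulators. The fourth was Grhl1, with 2 start sites and no E-box in either window. Its window with 75.6% GC held GC boxes at bases -169 to -164 and -157 to -152. Its window with 52.0% GC held a GGGTGG at bases -81 to -76. Of 32851 RefSeq promoter windows of this length 17.2% held the E-box, 28.1% the CACCC box and 32.7% the GC box. The Grainyhead site AACCGGTT (0.1% of windows) and the Ovol site CCGTTA or TAACGG (2.2%) were also searched, and neither occurred in the windows of the 4 genes. These matches are letters in a window and were not measured as binding.

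Grhl2, the Grainyhead-like factor of mammary and other simple epithelia, read 9.69 and 9.47 untreated and 7.87 and 8.10 with TGFβ. Both TGFβ values lay at least 1.37 below both untreated values. The difference was -1.60 ± 0.12 (SE, n = 2 per group, limma adjusted p = 0.00123), a fall of 3.02-fold. Grhl1, its relative in the epidermis, read 6.15 and 6.10 untreated and 6.03 and 5.97 with TGFβ, all near background. The groups did not overlap, and the difference of -0.12 did not pass (95% interval -0.31 to 0.06, limma adjusted p = 0.402). At so dim a level a fall could be hard to see, which was not tested.

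Ovol1 read 7.85 and 7.94 untreated and 6.67 and 6.66 with TGFβ. The 2 TGFβ arrays were within 0.01 of each other, below both untreated arrays, and the difference was -1.22 ± 0.08 (SE, n = 2, limma adjusted p = 0.000696). The TGFβ mean was under 7, the level read here as near background, so background may limit the fall of 2.33-fold. Ovol2, which represses Zeb1 in mammary epithelium, read 7.14 and 7.38 untreated and 6.76 and 7.03 with TGFβ. Each TGFβ array lay below both untreated arrays, by as little as 0.10 for the nearest pair. Its difference of -0.36 had a 95% interval of -0.68 to -0.04 before adjustment and an adjusted p of 0.145 in limma. Ovol2 therefore stayed short of the threshold, with levels in the dim part of the range in both groups.

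Esrp1 read 11.24 and 11.13 untreated and 9.50 and 10.05 with TGFβ. It fell by 1.41 ± 0.18 (SE, n = 2, limma adjusted p = 0.00675) on the log2 scale, or 2.66-fold. The TGFβ arrays were 0.56 apart, and both lay at least 1.08 below the untreated arrays. Esrp2, the second of these splicing regulators, read 9.50 and 9.29 untreated and 8.22 and 8.32 with TGFβ. Its fall of 1.12 ± 0.10 on the log2 scale was 2.18-fold (limma adjusted p = 0.00199). Both Esrp genes were thus lower without overlap, and neither TGFβ mean was near background. The splice forms that the Esrp proteins control were not analysed here, because a probe set gives 1 value per gene.

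Elf3, an ETS factor induced in differentiating epithelia, read 8.52 and 8.49 untreated and 6.24 and 6.85 with TGFβ. The untreated arrays were close together and the TGFβ arrays were 0.61 apart and near background. The difference of -1.96 ± 0.19 (SE, n = 2, limma adjusted p = 0.00278) was the largest fall among the 10. Background may limit its fold, since the TGFβ mean was 6.55. Ehf, the related ETS factor of glandular epithelia, read 7.88 and 7.19 untreated and 7.10 and 7.45 with TGFβ. Its groups overlapped, since untreated replicate 2 lay below TGFβ replicate 2. The difference was -0.26 (95% interval -0.84 to 0.33, limma adjusted p = 0.623). Without untreated replicate 1 it was 0.09, so its sign rests on that array.

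Klf4 read 9.33 and 9.35 untreated and 8.18 and 8.47 with TGFβ. It fell 2.025-fold, with a difference of -1.02 ± 0.11 (SE, n = 2, limma adjusted p = 0.00397). Klf5, a factor of proliferating epithelium, read 11.07 and 11.22 untreated and 10.39 and 10.41 with TGFβ. Its difference of -0.75 ± 0.08 (SE, n = 2, limma adjusted p = 0.00421) was 1.68-fold, the smallest of the 7 falls. Both Klf genes were lower in each TGFβ array than in each untreated array.

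**Figure D2:**
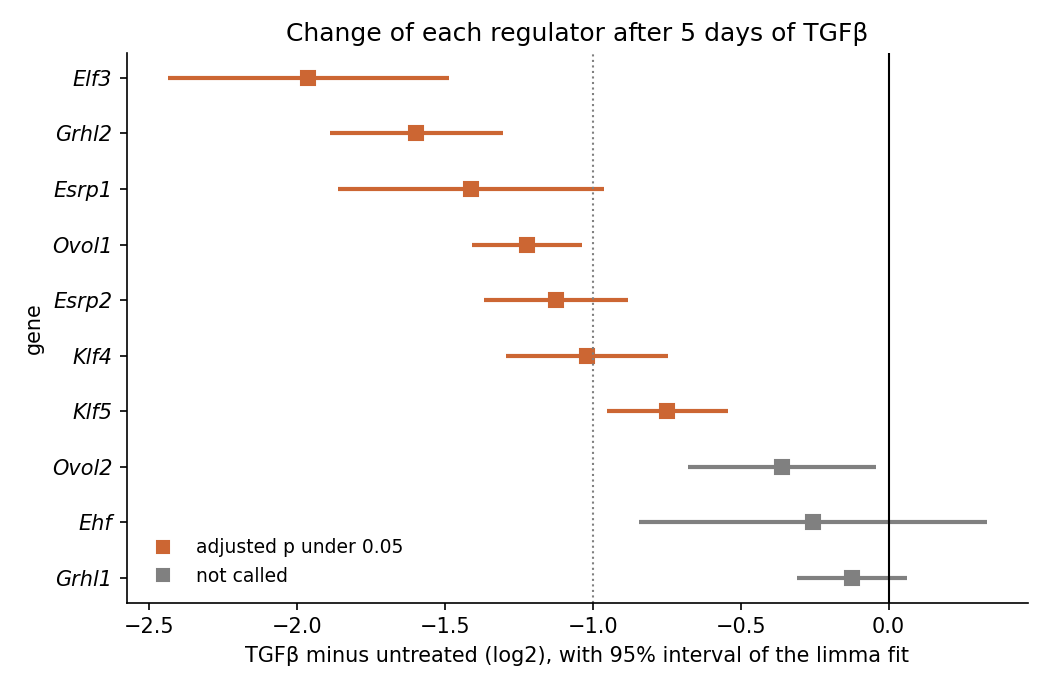
TGFβ minus untreated difference (log2, horizontal axis) of each regulator, squares with 95% intervals of the limma fit, in orange where the adjusted p was under 0.05. The dotted line marks a 2-fold fall. Elf3 at -1.96 and Grhl2 at -1.60 lie furthest left, and the intervals of Ehf and Grhl1 include 0.

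Ordered by size, the differences ran Elf3, Grhl2, Esrp1, Ovol1, Esrp2, Klf4, Klf5, Ovol2, Ehf and Grhl1. The 95% interval of each gene overlapped that of its neighbour in this order. The interval of Elf3 (-2.44 to -1.49) lay wholly below that of Klf5 (-0.95 to -0.54). Within families, the change of Grhl2 was 1.47 log2 units below that of Grhl1, and the change of Elf3 was 1.70 below that of Ehf. The change of Ovol1 was 0.86 below that of Ovol2. Grhl1 was near background and Ovol2 in the dim part of the range in both groups, which may limit how far either could fall. For Esrp1 against Esrp2 the gap was 0.29, and for Klf4 against Klf5 it was 0.27, both with the first gene lower. Against the untreated mean, the Esrp gap came to 0.52 on the first TGFβ array and to 0.06 on the second. An exact two-sided permutation test of these 5 pairs gave p = 0.333 for each, also after adjustment over the 5, and 0.333 is the smallest p that 2 against 2 arrays allow. So a difference between paralogs is given as a value and could not be shown by this test.

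The 2 TGFβ arrays differed in how low the regulators were. In TGFβ replicate 1 the value was lower than in TGFβ replicate 2 for 8 of the 10 genes, with Grhl1 and Ovol1 as the exceptions. The median change from the untreated mean was -1.17 in replicate 1 and -0.97 in replicate 2. Elf3 showed changes of -2.26 and -1.66 in the 2 arrays, Esrp1 -1.69 and -1.13, and Klf4 -1.16 and -0.87. Over all genes 9785 of 19938 were lower in TGFβ replicate 1 than in replicate 2, and among genes called lower 823 of 1426. Leaving out any 1 of the 4 arrays left the 7 calls in place, with adjusted p between 0.000581 and 0.0255 in limma, which then takes the spread of a group with 1 array from the group with 2.

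**Figure D3:**
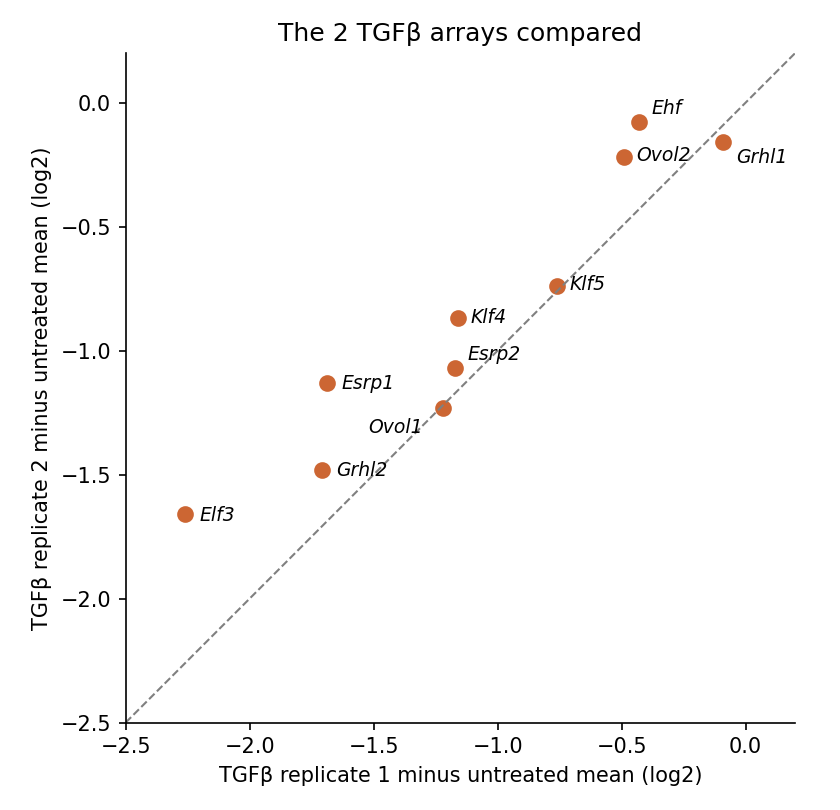
Change of each regulator from the untreated mean (log2) in TGFβ replicate 1 (horizontal axis) and TGFβ replicate 2 (vertical axis), with a dashed line where both are equal. Points above the line were lower in replicate 1, which holds for 8 of the 10 genes, Elf3 being furthest out at -2.26 and -1.66.

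Relatives of the regulators outside the set were examined in the same fit. Of 7 measured relatives (Grhl3, Ovol3, Elf5, Spdef, Elf1, Elf2 and Elf4), 0 passed in limma, with a median difference of -0.04. At an unadjusted p under 0.05, 3 were lower and 0 higher, where 13.4% and 12.7% of all genes were. Grhl3, a Grainyhead-like factor of barrier formation, differed by -0.26 (adjusted p = 0.0833), with a TGFβ mean under 7. The broadly expressed ETS factor Elf2 differed by -0.28 (adjusted p = 0.0572) and passed after cyclic loess (-0.29, adjusted p = 0.0433) or repeated quantile normalization (-0.29, adjusted p = 0.0447). Elf5, the ETS factor of milk-producing alveolar cells, differed by 0.00 and read under 7 on each array.

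Of 15 other Klf factors 1 rose, 1 fell and 13 did not pass, with a median of 0.10. These shares of 6.67% each way were near the 6.49% higher and 7.15% lower of all genes. Klf9, a factor induced by glucocorticoids, rose from 9.46 to 10.09 (limma adjusted p = 0.0116), and Klf3, a transcriptional repressor, fell from 10.59 to 10.02 (limma adjusted p = 0.00867). Klf8 differed by 0.62 (adjusted p = 0.0567) and passed without TGFβ replicate 2 (0.84, adjusted p = 0.0116). It also passed after median centring (adjusted p = 0.0486), without the dimmest 25% of genes (0.0428) and when variances followed an intensity trend (0.0307). Klf12 differed by 0.54 (adjusted p = 0.169) and also passed without that array (0.86, adjusted p = 0.0127). Among 12 other measured epithelial transcription factors 4 fell (7.15% of all genes did), 0 rose and 8 did not pass. Their median was -0.24. The 4 were Zfp750, a factor of epidermal differentiation (-2.14, limma adjusted p = 0.0033), and Gata3, the luminal mammary factor (-1.04, adjusted p = 0.00761), with the pioneer factor Foxa1 (-0.81, adjusted p = 0.00418) and the Grainyhead-related factor Tfcp2l1 (-0.72, adjusted p = 0.00979). Foxa1, Tfcp2l1 and Zfp750 had TGFβ means under 7. Trp63, the basal epithelial factor, was under 7 on each array, with a difference of -0.09.

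Genes known as targets of Grainyhead-like factors, mostly from work on Grhl2, were lower in nearly the whole list. Of 21 measured 18 fell, against 7.15% of all genes, 0 rose and 3 did not pass. The median was -1.57 on the log2 scale. At least a 2-fold fall was called for 14, against 1.78% of all genes. The largest falls were those of Mal2, a protein of apical transport (-3.72, limma adjusted p = 0.000286), the small GTPase Rab25 (-2.94, adjusted p = 0.00208) and the membrane glycoprotein Prom2 (-2.78, adjusted p = 0.000713), with Mal2 near background after TGFβ. Cldn3, Cldn4 and Cldn23 did not pass, with differences of -0.81, 0.21 and -0.26. Cldn3 passed after median centring (-0.80, adjusted p = 0.0295), without the dimmest 25% of genes (-0.81, adjusted p = 0.0366) or when TGFβ replicate 2 was left out (-1.09, adjusted p = 0.0138). The target list was lower in TGFβ replicate 1 than in replicate 2 for 20 of 21 genes. Without untreated replicate 1 the median difference of the list was -1.41. These targets were listed with earlier results of these data known, and their count is not independent evidence about Grhl2.

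**Figure D4:**
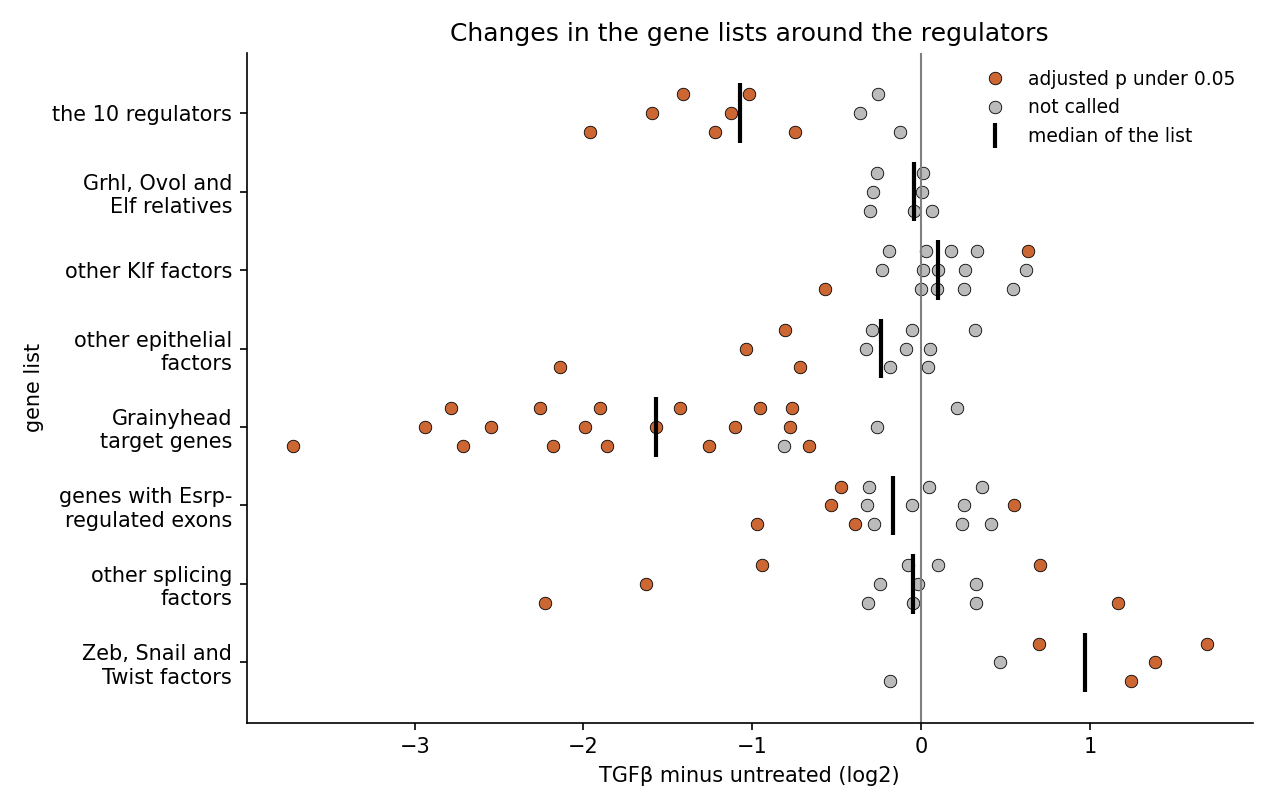
TGFβ minus untreated difference (log2, horizontal axis) of the genes in each list, 1 point per measured gene, in orange where the limma adjusted p was under 0.05 and in grey otherwise, with a black bar at the list's median. The medians run from -1.57 for the Grainyhead targets and -1.07 for the 10 regulators to 0.97 for the Zeb, Snail and Twist factors.

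Genes that carry Esrp-regulated exons were read for their total level. Of 14 measured 4 fell, 1 rose and 9 did not pass, with a median of -0.17. Over all genes 7.15% fell and 6.49% rose. The integrin subunit Itga6 fell by 0.97 (limma adjusted p = 0.0048), the largest difference of the list. The kinase Slk (-0.53), p120 catenin Ctnnd1 (-0.48) and the tumour suppressor Nf2 (-0.39) also fell, and the Wnt effector Tcf7l2 rose by 0.55, all on the log2 scale. Without untreated replicate 2 only Itga6 passed. The calls of Slk, Nf2 and Tcf7l2 were also lost without TGFβ replicate 1 or TGFβ replicate 2, and those of Ctnnd1 and Nf2 without untreated replicate 1, with adjusted p between 0.0572 and 0.15 over these losses. Fgfr2 differed by -0.31 (adjusted p = 0.0884) and was under 7 in both groups, and Cd44 differed by -0.28 (adjusted p = 0.0803). Cd44 passed after cyclic loess (-0.31, adjusted p = 0.0459), repeated quantile normalization (-0.32, adjusted p = 0.0457) or with an intensity trend (-0.28, adjusted p = 0.0341).

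Other splicing factors went both ways. Of 13 measured 3 fell, 2 rose and 8 did not pass, where 7.15% of all genes fell and 6.49% rose. The median was -0.05, and 0.006 without TGFβ replicate 2. Rbm47, an RNA-binding protein of epithelia, read 10.14 and 10.10 untreated and 7.41 and 8.37 with TGFβ, a fall of 4.68-fold (limma adjusted p = 0.00719). Celf2 (-1.63, limma adjusted p = 0.000616) and the muscleblind protein Mbnl3 (-0.94, adjusted p = 0.00182) also fell. The neuronal splicing regulators Nova1, at 1.17 (adjusted p = 0.0136), and Ptbp2, at 0.71 (adjusted p = 0.0257), rose, Nova1 from near background. The Nova1 call was lost without TGFβ replicate 1 (1.01, adjusted p = 0.05) and the Ptbp2 call without either untreated array, at 0.63 (adjusted p = 0.103) and 0.78 (adjusted p = 0.0522). Rbfox2, which favours mesenchymal exons, differed by 0.32 (adjusted p = 0.0751).

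Among the EMT repressors, Zeb1, Zeb2, Snai1 and Snai2 moved opposite to the regulators, and the Twist factors did not pass. Of 6 measured 4 rose, against 6.49% of all genes, 0 fell and 2 did not pass. The rises were Zeb1 at 1.69, Zeb2 at 1.39, Snai1 at 1.24 and Snai2 at 0.70 on the log2 scale. Twist1 (-0.18) and Twist2 (0.47) did not pass.

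For each regulator with a called fall of at least 2-fold, the genes with the most alike pattern were taken by the Euclidean distance between values centred on each gene's mean over the 4 arrays, among 10137 genes. Nearest to Grhl2 were Rragb, a Rag GTPase (distance 0.0603 log2 units), and Spint1, an inhibitor of the protease matriptase (0.0797), itself in the Grainyhead target list. Nearest to Esrp2 were the endosomal adaptor Tom1l1 (0.0351) and Lrba (0.0647), and nearest to Esrp1 the ribonuclease Ang2 (0.0663), which has close copies in the genome, and the interleukin subunit Il23a (0.0743). Klf4 lay nearest to Sh3tc1 (0.0501) and the membrane glycoprotein Cdcp1 (0.052). Ovol1 lay nearest to Als2cl (0.114) and the microtubule protein Map2 (0.119), and the AMP deaminase Ampd3 lay near Elf3 (0.123). These genes all fell, with log2 differences from -2.01 to -1.05, as the choice of likeness implies. With 4 arrays in 2 groups, such likeness mostly restates the size of the fall.

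The cells carried the luminal markers listed except Krt19, and also the basal keratin Krt14, which read 10.79 and 11.49 untreated and 10.16 and 9.36 with TGFβ. Krt8, Krt18 and Krt7 lay between 13.20 and 13.61 on the 4 arrays and did not pass, while Krt19 was under 7. Of the 6 luminal markers 2 fell and 0 rose, namely Epcam (-1.10, limma adjusted p = 0.00937) and Cdh1 (-1.25, adjusted p = 0.0171), of which Cdh1 did not pass when untreated replicate 1 was left out (-1.24, adjusted p = 0.0567). Both are also in the Grainyhead target list. The summed luminal level was 15.25 and 15.27 untreated and 15.05 and 15.09 with TGFβ (log2 of summed linear values). The 5 basal markers summed to 11.06 and 11.71 untreated and 10.55 and 9.98 with TGFβ, with Krt5, Trp63 and Oxtr under 7. Their 1 call, Krt14 (-1.38, limma adjusted p = 0.0432), was lost without untreated or TGFβ replicate 2, with an intensity trend and with the replicate block. Of 7 fibroblast markers 2 rose, Pdgfrb by 1.01 (adjusted p = 0.00111) and Col1a1 by 0.46 (adjusted p = 0.0273, lost without untreated replicate 1 or either TGFβ array), while Dcn, Lum and Thy1 were under 7, and the summed level went from 9.89 and 9.98 to 10.28 and 10.46. The 5 endothelial and 4 adipocyte markers were under 7 on average, with sums of 8.13 to 8.22 and 8.23 to 8.40. Of 4 immune markers Ptprc and Cd3e were under 7, and 0 passed. The sum was 10.23 and 9.62 untreated and 8.93 and 9.34 with TGFβ. Csf1r differed by -0.45 (limma adjusted p = 0.204). Cd68 differed by -1.29 (limma adjusted p = 0.0518) and passed after median centring (adjusted p = 0.0303), without the dimmest 25% of genes (adjusted p = 0.0353) and with either replicate 2 left out, at -1.67 for the untreated one (adjusted p = 0.0245) and -1.65 for the TGFβ one (adjusted p = 0.0306). By the same rule 7.15% of all genes were lower and 6.49% higher. The part of the basal, fibroblast and immune markers in the falls above was not tested.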

How the data were processed

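Total RNA of 4 Py2T cultures was measured on Affymetrix arrays after WT amplification and terminal labelling, per the labels' protocols. The deposited log2 values were made by the authors with RMA in oligo, per the submitters' processing notes, and oligo's version is not given in the sources used here. They cover 35556 probe sets, between 3.328 and 14.292, with array medians of 6.742 to 6.756. The number of arrays limits the precision, and no detection calls came with the values. Probe sets with 1 symbol (21789) were used, and those with several (1621) or none (12146) were not analysed here as genes. The brightest stood for each of 19938 genes, with no filter on low values.

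Differences were fitted with limma 3.58.1 in R 4.3.3 (2 residual and 3.77 prior degrees of freedom), with Benjamini-Hochberg adjustment over every gene. The regulators, lists and tests were chosen with earlier results of these data known. Named genes are the 10 regulators, up to 3 called rises and 3 called falls per list, the nearest patterns and the EMT repressors. Nf2, Tfcp2l1 and genes given without a call were picked afterwards. Predicted, olfactory, vomeronasal and small RNA genes were left out of the nearest patterns, and 1 nearest gene is not reported here. In 10 simulations with 200 of 19938 genes changed, log2 differences of 0.5, 1 and 2 were recovered in 11.8%, 88.4% and 99.4%, with 8 false calls on average. Recovery depends on the share of genes changed. In the data 2720 genes were called, so these percentages do not give the recovery there. Alternatives were 3 rescalings, 2 filters on dim genes, the mean of a gene's probe sets, another variance model, a replicate block, a 2-fold threshold, all probe sets by identifier, leaving out each array and, chosen after seeing the data, a crossed block.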

Additional observations from a re-analysis of the deposited data

How the results depend on the processing

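The count of 7 regulators called was also 7 without any 1 array and under 3 rescalings, the mean of probe sets, an intensity trend with robust variances, both blocks and all probe sets by identifier. It was 6 with a 2-fold threshold, where Klf5 dropped out, and 6 of the 7 regulators left without the dimmer 50% of genes. Klf4, at -1.02, lay close to the 2-fold threshold. Its fall was under 2-fold after repeated quantile normalization (-0.98) and without TGFβ replicate 1 (-0.87). Ehf, at -0.26, ranged from -0.6 to 0.09 with 1 array left out, the positive value being without untreated replicate 1. Each regulator has 1 probe set, so the mean of probe sets left its values unchanged and the second-brightest gave no value. The count over all genes, 2720, was 677 with a 2-fold threshold, 1536 over all probe sets by identifier, and between 1535 and 2260 with 1 array left out. With the replicate block it was 1624, and the calls of Cgn, Lsr, Slk, Tcf7l2, Nf2, Ptbp2, Krt14 and Col1a1 were lost (limma adjusted p between 0.0521 and 0.12). Klf8 and Twist2 passed with that block (adjusted p = 0.0436 and 0.0441). The Grainyhead target list then had 16 falls, and the list with Esrp-regulated exons had 2 falls and 0 rises. The labels do not say that a replicate number marks a shared day or batch, and the deviations of same-numbered arrays correlated at -0.213 over genes. A crossed pairing, chosen after seeing the data, gave 3640 calls. With the replicate block the 7 regulators passed at adjusted p between 0.00796 and 0.0262, and the block was not fitted for the family pairs, which were tested by permutation. The Esrp gap of 0.29 ranged from 0.06 to 0.52 with 1 array left out, the Klf gap of 0.27 from 0.13 to 0.41. Signal close to background may limit Grhl1, Ovol1, Ovol2 and Elf3.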

Other observations

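Among the listed Grainyhead target genes 14 had a RefSeq promoter window, and 6 of their 17 windows held the E-box CACCTG or CAGGTG in the 250 bases before the start, beside 17.2% of all 32851 windows. Among the 15 other Klf factors 12 had a window, and 1 of 13 windows held it. Of 5 windows of the regulators 1 held it. Of 11 windows of the 7 relatives outside the set 4 held it, and 0 of these relatives passed in limma. Whether the E-box goes with a fall was not tested. Windows of 1 gene with several starts share their source, and the letters were not measured as binding.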
